A study of Homo sapiens with 6 samples.

Results

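Liver plasma and acute-phase protein genes were followed in Hep3B, a human line established from a hepatocellular carcinoma. They were a list of 39 genes for albumin and other carriers, protease inhibitors, fetuins, acute-phase reactants and hormone-related plasma proteins, chosen by gene symbol. All 39 were among the 23406 features of the deposited count table, and 29 of them were among the 14071 features with enough reads to be tested. Hep3B cells received lentiviral shRNA, either a control (shControl) or one directed at NXN (shNXN), and were kept in puromycin for about a week. NXN encodes nucleoredoxin, a thioredoxin-related protein. Cells of each group were collected on days 7, 9 and 11, which gave 3 shControl and 3 shNXN libraries of total RNA. The labels do not say whether the days were counted from transduction or from the end of selection. They name 1 cell line, do not say how many separate transductions were made, and do not say which shRNA against NXN was used, so p-values measure only the spread between these libraries.

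Hepatocytes secrete most of the proteins of blood plasma, with albumin the most abundant among them. During an acute-phase response, interleukin-6, acting through the receptor subunit gp130, JAK kinases and STAT3, and interleukin-1, acting through NF-kB and C/EBP factors, raise the output of positive acute-phase proteins such as C-reactive protein and serum amyloid A. Negative acute-phase proteins such as albumin and transthyretin are made in smaller amounts at the same time. Hepatoma lines keep part of this secretory programme, and Hep3B cells have long been used to study it.

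NXN itself was lower in every shNXN library. Its level was 154 ± 23.4 CPM (counts scaled to library size) in shControl and 43.2 ± 4.03 CPM in shNXN (SD, n = 3), a log2 fold change of -1.83 (SE 0.16, adjusted p = 0.0378, edgeR quasi-likelihood test). The lowest shControl value was 138 CPM and the highest shNXN value 47.5 CPM. Library totals ran from 15349382 to 16332589 counts. Hepatocyte markers summed to between 7446 and 16024 FPKM in shControl and between 3585 and 8765 FPKM in shNXN. These sums included ALB, itself a member, at 4409 to 12145 FPKM in shControl and 489 to 4735 FPKM in shNXN. The markers did not move together. The log2 fold change in shNXN was -1.69 for ALB, -1.07 for AFP and -0.12 for TTR. It was 0.44 for SERPINA1, 0.38 for TF and 0.09 for APOA1. The 5 cholangiocyte markers, led by KRT19 and EPCAM, were also expressed, at 665 to 1121 and 806 to 953 FPKM. The 5 macrophage markers summed to between 46.9 and 53.1 FPKM in shControl and between 59.9 and 76.8 FPKM in shNXN. Nearly all of this was CD68, a lysosomal protein gene that was higher in every shNXN library (87.1 to 97.1 CPM, against 57.4 to 75.6 CPM), and CD14 was at 1.40 to 7.49 FPKM. The leukocyte gene PTPRC was at no more than 0.04 FPKM, and CD163 and MARCO had 0 counts in every library. The endothelial list summed to at most 0.63 FPKM, with VWF and KDR at 0 counts. The part of these marker differences in the results was not tested. The shNXN library of day 11 stood apart from the other 2 of its group for several members, although NXN was low in it too. The results that rest on it are therefore also given without it. The choice of that library rests on the members' own values, so p-values without it are not independent of those values. The bulk libraries cannot tell fewer cells of a kind from less RNA per cell.

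To compare levels between genes, FPKM (fragments corrected for transcript length and sequencing depth) was used. By their mean over the 6 libraries, 12 of the 39 members were at 100 FPKM or more, 22 at 10 or more, 6 between 1 and 10, and 11 under 1. ALB, the albumin gene, was highest at 4885 FPKM and ranked 5 among all Ensembl features. GC, which encodes the vitamin D-binding protein, followed at 2007 FPKM, SERPINA1, for alpha-1-antitrypsin, at 1186, AMBP, for alpha-1-microglobulin and bikunin, at 844, and AHSG, for fetuin-A, at 395 FPKM. Of the 38 pairs of neighbours in this order, 35 overlapped in their ranges over the 6 libraries, so most neighbouring ranks could not be separated. ALB and GC were such a pair, since ALB was at 489 FPKM in the shNXN library of day 9. Without ALB, the members together held a near-constant share of all FPKM, 0.849% to 1.02% per library. With it, the share ran from 0.912% to 2.65%, and ALB alone made up between 6.92% and 67.5% of the members' FPKM.

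The roles differed in how completely they were expressed. All 9 carriers were tested, and 6 were at 10 FPKM or more. Of the 8 protease inhibitors, 5 were tested and all 5 were at 10 FPKM or more, while ITIH1, ITIH3 and ITIH4, which encode heavy chains of the inter-alpha-trypsin inhibitors and neighbour each other on chromosome 3, were not. ITIH2, the heavy chain gene on chromosome 10, was at 104 FPKM. Of the 10 acute-phase reactants only 5 were tested. CRP, for C-reactive protein, had 0 to 5 counts per library, SAA1 had 1 count in the shControl and 2 in the shNXN library of day 11 and 0 elsewhere, and SAA2 and APCS, for serum amyloid P, had 0 counts in all 6 libraries, which allows up to 3 counts in each. LBP, for the lipopolysaccharide-binding protein, had 0 to 12 counts. The classical inducible reactants were thus at or near the limit of detection in both groups, and differences in them were not detectable at this depth. HRG and IGFBP2 were the remaining members with too few reads to test.

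The promoters of 4 members are shown because these genes led the patterns described below: ALB was low in 2 of the 3 shNXN libraries, ORM1 was higher in shNXN on every day, and SERPINA6 and AGT were low on day 11 in both groups. RefSeq promoters (GRCh38.p14) were found for 27 of the 39 members. Each sequence is the 150 bases before the transcript start, 5′ to 3′ on the gene's strand, at chr4:73404137-73404286 (plus) for ALB, chr9:114322948-114323097 (plus) for ORM1, chr14:94323337-94323486 (minus) for SERPINA6 and chr1:230714123-230714272 (minus) for AGT. Capitals mark matches, on either strand, to an HNF1 half-site (GTTAAT), a C/EBP site (TTGCNNAA), a STAT site (TTCNNNGAA) or a TATA box (TATAAA).
ALB: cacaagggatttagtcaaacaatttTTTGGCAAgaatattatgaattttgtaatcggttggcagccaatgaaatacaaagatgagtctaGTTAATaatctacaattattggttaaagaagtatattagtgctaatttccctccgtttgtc
ORM1: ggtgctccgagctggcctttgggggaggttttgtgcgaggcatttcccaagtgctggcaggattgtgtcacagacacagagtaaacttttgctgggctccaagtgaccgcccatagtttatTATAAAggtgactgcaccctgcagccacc
SERPINA6: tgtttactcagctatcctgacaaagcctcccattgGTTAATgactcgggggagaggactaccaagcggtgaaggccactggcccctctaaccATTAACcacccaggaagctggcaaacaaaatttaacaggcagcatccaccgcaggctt
AGT: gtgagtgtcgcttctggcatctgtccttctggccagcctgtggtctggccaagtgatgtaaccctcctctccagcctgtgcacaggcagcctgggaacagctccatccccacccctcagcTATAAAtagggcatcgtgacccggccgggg

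HNF1 and C/EBP are families of hepatocyte transcription factors, and STAT3 is the factor that interleukin-6 activates. The ALB window held a C/EBP match beginning 125 bases and an HNF1 half-site beginning 61 bases before the start. SERPINA6 held HNF1 half-sites at 115 and 58 bases before the start. ORM1 and AGT held a TATA box, at 29 and 30 bases before the start. Over 250 bases before the start, the HNF1 half-site was found in 6 of the 27 members (22.2%) and in 6.23% of 35116 windows, the C/EBP site in 9 (33.3%) and 9.05%, the STAT site in 7 (25.9%) and 6.57%, and the TATA box in 9 (33.3%) and 10.7%. Some members had several start sites, and over genes rather than windows the shares were 7.50%, 11.0%, 8.09% and 13% in the same order. Each motif was counted separately, so 1 stretch may match more than 1 of them, and a match is a description of the sequence only.

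When shNXN was compared with shControl over the 3 days, 0 of the 29 tested members passed an adjusted p of 0.05 in edgeR's quasi-likelihood test, against 3.39% of all features tested. At an unadjusted p under 0.05, 7 members were higher and 2 lower, against 11.6% and 21.3% of all features. The median log2 fold change of the tested members was 0.19, against 0.03 over all features. The labels number the libraries by day, so the comparison was also made with the day as a block. It then called 5 members, and all 5 were higher in shNXN: ORM1, ORM2, IGFBP1, LCN2 and VTN (17.2% of 29, against 6.28% of all features called higher). It called 0 members lower, against 17.0% of all features, with 3 members lower at an unadjusted p under 0.05, against 26.0% of all features. DESeq2's Wald test without the block also called 5 members higher, SERPINA1, SERPINA3, ORM1, VTN and SAA4, against 6.74% of all features. Without the shNXN library of day 11, edgeR called 6 of 30 members, with SERPINA3, ORM1 and ORM2 higher and ALB, GC and CP lower, against 25.8% of all features. After removal of each library's trend with guanine and cytosine content, 0 members were called, with the block or without it.

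By plain ordering of the libraries, all 3 shNXN values lay above all 3 shControl values for 6 of 29 members (20.7%), SERPINA1, SERPINA3, ORM1, VTN, SAA4 and LRG1, against 19.0% of all features. Only GC lay below in the same sense (3.45%, against 21.5%). Compared within each day, 13 members (44.8%) were higher in shNXN on all 3 days, against 35.8% of all features. TTR, GC and CP (10.3%) were lower on all 3 days, against 32.6%. The count of members higher on every day was therefore close to the background, and the count of those lower was below it.

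**Figure D1:**
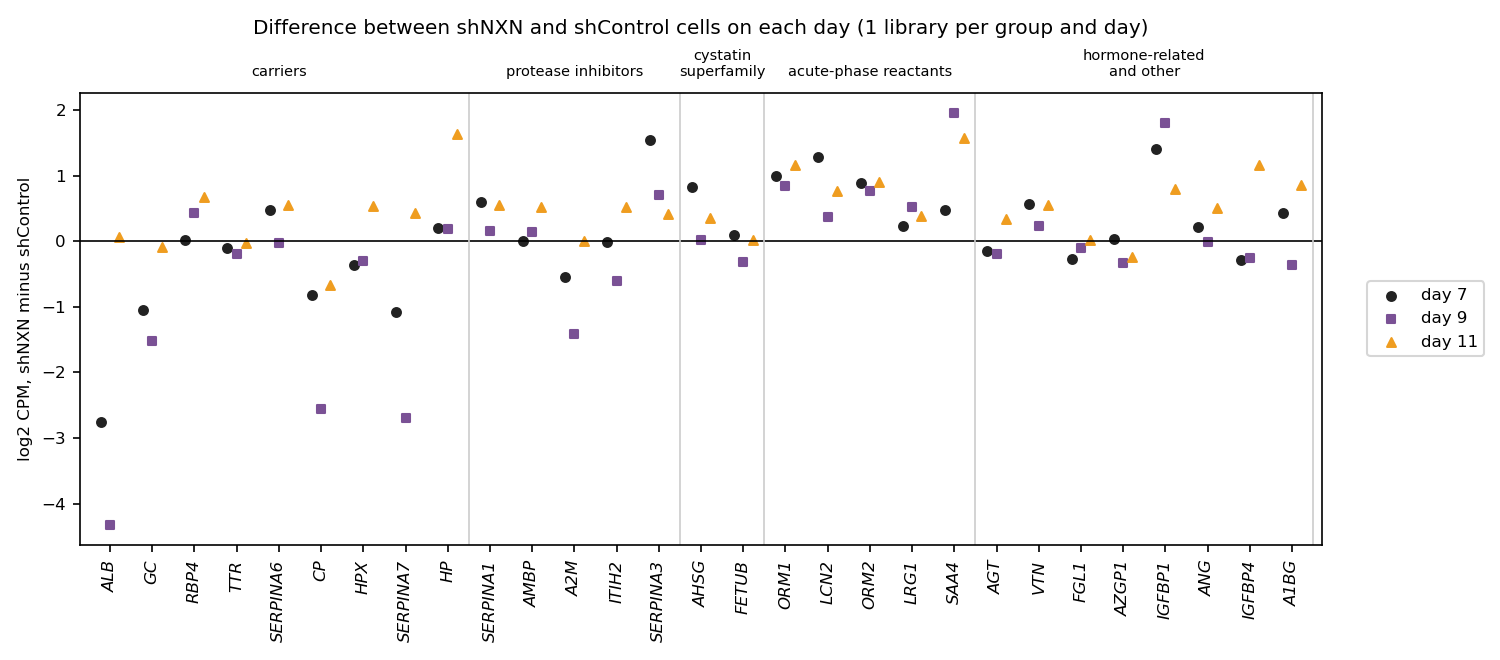
Difference in log2 CPM between the shNXN and the shControl library of the same day for the 29 tested members, grouped by role, with 1 symbol shape and colour per day. ALB, GC, CP, SERPINA7 and A2M lay lowest on day 9 and at or nearer 0 on day 11, while the 5 acute-phase reactants lay above 0 on every day.

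Among the 9 carriers, 6 had a lower and 3 a higher mean in shNXN, with a median log2 fold change of -0.15 and 0 called in the fits over all 6 libraries. ALB (chr4:73397114-73421412 in GRCh38, plus strand, gene coordinates of GENCODE 29 here and below) was at 9566, 13655 and 6955 CPM in shControl on days 7, 9 and 11. In shNXN it was at 1420.35, 683 and 7249.6 CPM on the same days. It was thus 6.73-fold lower on day 7 and 20.0-fold lower on day 9, while the 2 libraries of day 11 were nearly level. The log2 fold change was -1.69 (SE 0.81, adjusted p = 0.186, edgeR). Without the shNXN library of day 11 it was -3.26 (SE 0.42, adjusted p = 0.00259, edgeR), in a fit that called 25.8% of all features. That library was left out because of values such as these, so the smaller p-value is not separate support. The FPKM values gave the same order, 5.94-fold lower on day 7 and 24.9-fold lower on day 9.

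GC, on the same chromosome as ALB (chr4:71741693-71804041, minus strand), was at 1987, 2362 and 2038 CPM in shControl. In shNXN it was at 962, 822 and 1914 CPM. The groups did not overlap, but the shNXN value of day 11 came close to the shControl range. The log2 fold change was -0.79 (SE 0.31, adjusted p = 0.134, edgeR), and -1.25 (SE 0.16, adjusted p = 0.00222) without that library. CP encodes ceruloplasmin, the copper-carrying ferroxidase of plasma. It was at 141, 175 and 268 CPM in shControl and at 79.8, 29.3 and 170.01 CPM in shNXN. It was lower in shNXN on each day, 5.97-fold on day 9, but also higher on day 11 than on day 7 in both groups, so that the ranges overlapped. In FPKM the direction of day 7 turned, with 56.5 in shNXN and 51.55 in shControl, and the difference on day 9 was 3.88-fold. Its log2 fold change was -1.07 (SE 0.58, adjusted p = 0.229, edgeR), and -1.84 (SE 0.47, adjusted p = 0.0287) without the shNXN library of day 11.

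SERPINA7, the thyroxine-binding globulin gene, followed the same course at a far lower level. It was at 6.49, 9.475 and 2.45 CPM in shControl and at 2.80, 1.04 and 3.48 CPM in shNXN, with overlapping groups (log2 fold change -1.33, SE 0.59, adjusted p = 0.166, edgeR). TTR, for transthyretin, did not follow it. TTR was at 72.6, 63.7 and 38.2 CPM in shControl and at 67.2, 55.8 and 37.4 CPM in shNXN, a log2 fold change of -0.12 (SE 0.30, adjusted p = 0.790, edgeR). SERPINA6, for the corticosteroid-binding globulin, was at 80.6, 103 and 29.4 CPM in shControl and at 113, 100.2 and 43.3 CPM in shNXN, again with overlap (log2 fold change 0.27, SE 0.50, adjusted p = 0.721, edgeR). AFP, the fetal homologue of albumin and a hepatocyte marker outside the list, was at 1426, 1278 and 1083 CPM in shControl and at 444, 301 and 1056 CPM in shNXN.

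The protease inhibitors split. SERPINA1 and SERPINA3, for alpha-1-antitrypsin and alpha-1-antichymotrypsin, lie with SERPINA6 within a cluster on chromosome 14. SERPINA1 was at 1367, 1387 and 1226 CPM in shControl and at 2073, 1541 and 1801 CPM in shNXN (log2 fold change 0.44, SE 0.15, adjusted p = 0.0959, edgeR). SERPINA3 was at 26.7, 31.3 and 32.8 CPM in shControl and at 78.9, 51.5 and 43.6 CPM in shNXN (log2 fold change 0.94, SE 0.25, adjusted p = 0.0692, edgeR). For both genes every shNXN library was above every shControl library, and the excess of SERPINA3 was largest on day 7 and smallest on day 11. DESeq2 gave adjusted p values of 0.0350 and 0.00688 for this pair. A2M, for the broad-range inhibitor alpha-2-macroglobulin, went the other way. It was at 1247, 2070 and 1015 CPM in shControl and at 859.7, 776 and 1017 CPM in shNXN. The shNXN libraries of days 7 and 9 were below the whole shControl range and that of day 11 within it (log2 fold change -0.71, SE 0.27, adjusted p = 0.126, edgeR). AMBP was at 1056, 1060 and 619 CPM in shControl and at 1057, 1165 and 887 CPM in shNXN, with little difference before day 11 (log2 fold change 0.19, SE 0.23, adjusted p = 0.585, edgeR).

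The cystatin superfamily members AHSG, FETUB and HRG stand next to each other on chromosome 3, and their levels differed widely. AHSG was at 469.8, 464 and 494 CPM in shControl and at 829, 470.4 and 633 CPM in shNXN. The shNXN value of day 9 was within the shControl range and the other 2 above it (log2 fold change 0.44, SE 0.21, adjusted p = 0.181, edgeR). FETUB, for fetuin-B, was at 0.983, 0.80 and 0.184 CPM in shControl and at 1.10, 0.552 and 0.193 CPM in shNXN, and HRG had 0 to 3 counts per library.

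The 5 acute-phase reactants with enough reads, ORM1, ORM2, LCN2, LRG1 and SAA4, were all higher in shNXN on each of the 3 days, with a median log2 fold change of 0.89. Of the 5, edgeR called 0 without the block and 3 with it, against 6.28% of all features called higher with the block, and DESeq2 without the block called ORM1 and SAA4. ORM1 (chr9:114323056-114326475, plus strand) and ORM2, directly beside it, encode the orosomucoids, acidic glycoproteins that bind drugs and rise in inflammation. ORM1 was at 67.8, 67.5 and 30.4 CPM in shControl and at 136, 122 and 68.8 CPM in shNXN. The groups did not overlap, and the log2 difference between the libraries of the same day was 1.0, 0.85 and 1.16 on days 7, 9 and 11. The log2 fold change was 0.98 (SE 0.37, adjusted p = 0.125, edgeR) without the block and 1.01 (SE 0.12, adjusted p = 0.0147) with it. ORM2 was at 23.2, 21.7 and 10.2 CPM in shControl and at 43.5, 37.4 and 19.6 CPM in shNXN, with a log2 fold change of 0.88 with the block (SE 0.14, adjusted p = 0.0200, edgeR). Within each day the pair moved alike, and for ORM2 the shNXN value of day 11 was within the shControl range. The transcripts of the 2 genes are 95.9% identical over 760 aligned bases, so reads could have been shared between them and the values are not independent.

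LCN2, for the siderophore-binding lipocalin NGAL, was at 55.0, 40.8 and 70.1 CPM in shControl and at 135, 53.0 and 119 CPM in shNXN. It was higher in shNXN on each day, least so on day 9, when both groups were at their lowest. Its log2 fold change was 0.81 with the block (SE 0.20, adjusted p = 0.0415, edgeR) and 0.89 without it (SE 0.36, adjusted p = 0.142). SAA4, the constitutive serum amyloid A gene, was at 1.05, 0.246 and 0.613 CPM in shControl and at 1.64, 2.39 and 2.84 CPM in shNXN. The groups did not overlap, at a low level, and the gene lies within the readthrough locus SAA2-SAA4 (log2 fold change 1.84, SE 0.52, adjusted p = 0.0761, edgeR, and 0.0151 with DESeq2). LRG1, for a leucine-rich glycoprotein, was at 109.7, 90.5 and 85.1 CPM in shControl and at 129.6, 131 and 111 CPM in shNXN, without overlap (log2 fold change 0.38, SE 0.15, adjusted p = 0.137, edgeR).

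By direction in the acute-phase response, 11 positive members were tested, with 7 above and 4 below the shControl mean and a median log2 fold change of 0.44. With the block 3 were called higher, ORM1, ORM2 and LCN2, against 6.28% of all features called higher. The values of ORM1 and ORM2 are not independent. The 6 negative members tested were split, 3 higher and 3 lower, with a median of 0.13. The lower members included the negative ALB and the positive CP, and the negative ITIH2 was counted as lower at a fold of 1.0. Whether the members divided by their usual direction in the response was not tested.

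Among the 8 tested hormone-related and other members, 4 were higher and 4 lower, with a median log2 fold change of 0.05. IGFBP1, which binds insulin-like growth factors and responds to insulin and stress, was at 29.8, 7.38 and 39.2 CPM in shControl and at 79.2, 27.2 and 68.4 CPM in shNXN. It was lowest on day 9 in both groups and higher in shNXN on each day. With the block its log2 fold change was 1.35 (SE 0.23, adjusted p = 0.0230, edgeR), against 1.19 (SE 0.62, adjusted p = 0.216) without it. VTN, for the adhesive plasma protein vitronectin, was at 151, 165 and 129.55 CPM in shControl and at 223, 194 and 192 CPM in shNXN, with no overlap. Its log2 fold change was 0.45 in both fits (SE 0.14, adjusted p = 0.0907 without the block and SE 0.12, adjusted p = 0.0466 with it, edgeR). AGT, for angiotensinogen, differed little between the groups, at 435, 574 and 188.5 CPM in shControl and 393, 504 and 239 CPM in shNXN (log2 fold change -0.08, SE 0.42, adjusted p = 0.912, edgeR).

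**Figure D2:**
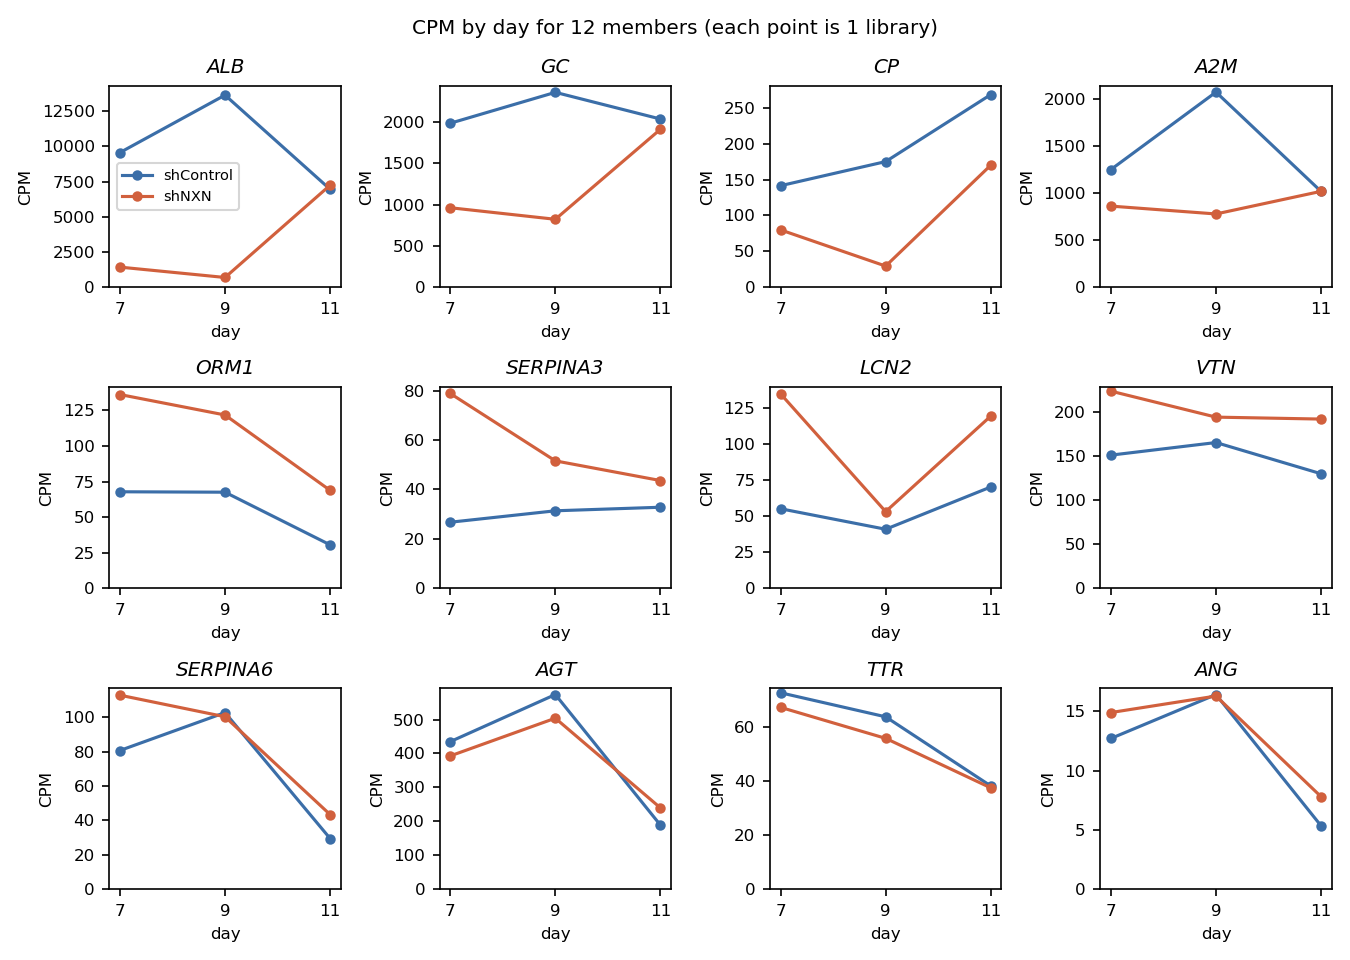
CPM by day for 12 members, with 1 panel per gene and its own axis starting at 0, blue for shControl and orange for shNXN, and each point 1 library. In the top row shNXN was below shControl on days 7 and 9, in the middle row it was above on each day, and in the bottom row both groups were low on day 11.

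The base composition of the transcripts moved with these differences. Taking the longest GENCODE 29 transcript, 5 tested members had a guanine and cytosine content under 45%, namely ALB (41.3%), SERPINA7 (41.9%), GC (42.0%), CP (39.1%) and FGL1 (42.7%), and all 5 had a lower mean in shNXN, with a median log2 fold change of -1.07. Of the 24 members at or above that content, 16 were higher, with a median of 0.34. After each library's trend with that content over all features was removed, the medians were -0.19 and 0.03. ALB then had a log2 fold change of -1.19, GC -0.19 and CP -0.19. Among the members that were higher in shNXN, SAA4 was then at 1.80, IGFBP1 at 1.02, ORM1 at 0.71, SERPINA3 at 0.64, ORM2 at 0.59 and LCN2 at 0.56. SERPINA1, VTN and LRG1 fell from 0.44, 0.45 and 0.38 to 0.15, 0.12 and 0.05. The median content was 53.0% in the tested members and 48.4% in all tested features with a value. The correction also takes out any difference between the groups that follows base composition, and the part of composition in these results was not tested.

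For GC the deposited count and FPKM did not tell the same story. Its FPKM was 1693, 1714 and 2315 in shControl and 2211, 2091 and 2021 in shNXN, which on the log2(FPKM + 1) scale made it 0.16 higher in shNXN, where the counts made it 0.79 lower. The count, the plain library total and the FPKM together imply the transcript length used. This implied length was 1.17, 1.37 and 0.879 kb in shControl and 0.447, 0.399 and 0.914 kb in shNXN. It was short in the 2 libraries in which the count was low. CP showed a similar course, at 2.72, 2.18 and 2.78 kb in shControl and 1.45, 1.45 and 2.45 kb in shNXN. The implied length differed by more than 1.5 times between libraries for 4 tested members, HP, A1BG, GC and CP, and by no more than 1.2 times for 20 of 29. The direction in shNXN differed between counts and FPKM for ITIH2, GC, IGFBP4 and AGT. For ALB both measures gave the same direction on days 7 and 9.

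**Figure D3:**
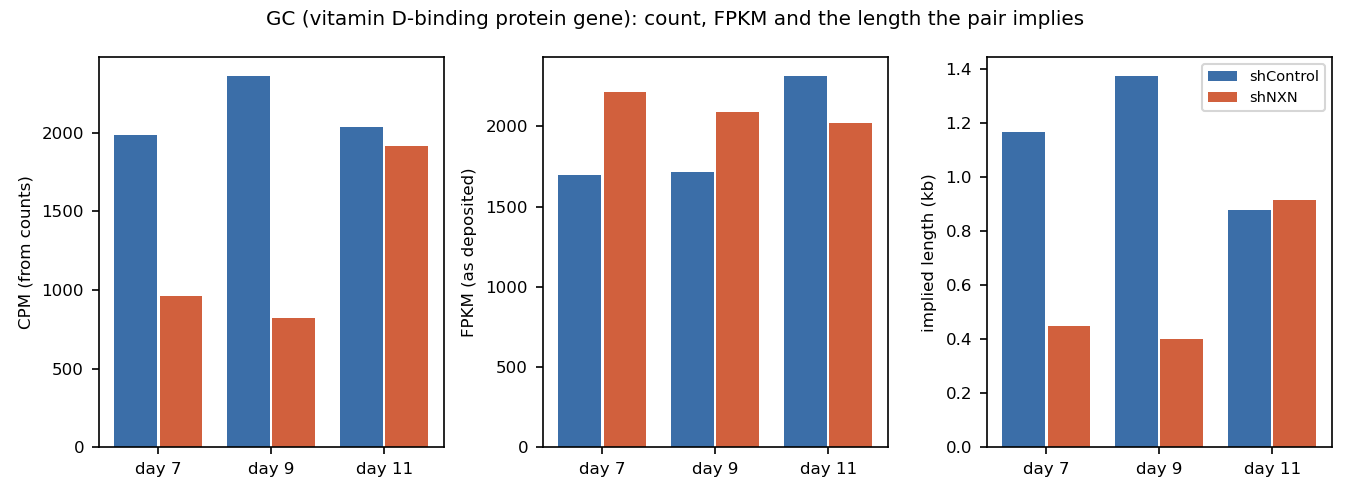
CPM, deposited FPKM and the length in kb implied by the count, the plain library total and the FPKM for GC, the vitamin D-binding protein gene, by day. Blue bars are shControl and orange bars shNXN, 1 library each. CPM was lower in shNXN on days 7 and 9 while FPKM was higher, and the implied length was 0.447 and 0.399 kb in those 2 libraries.

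To follow the members over time, day 11 was compared with day 7 in a fit with group and day. Of the 29 members, 21 were lower and 8 higher on day 11, with a median log2 fold change of -0.31 against 0.07 over all features. In edgeR 0 members were called, as were 0.0% of all features, and 10 members were lower and 0 higher at an unadjusted p under 0.05, against 9.75% and 10.5% of all features. DESeq2 called 7 members lower, TTR, SERPINA6, ORM1, ORM2, IGFBP4, AGT and ANG, against 2.91% of all features. EdgeR without the filter on low counts called SERPINA6, ORM1 and AGT, against 0.356% of all features called lower. Leaving out 1 library of day 11 also brought calls. Without the shNXN library of day 11, 6 members were lower (TTR, SERPINA6, ORM1, ORM2, IGFBP4 and AGT, against 2.22% of all features). Without the shControl library of day 11, 5 were lower (TTR, SERPINA6, ORM1, ORM2 and AGT) and ALB and GC were higher, against 10.8% of all features called in either direction. Both libraries of day 11 were below all 4 earlier libraries for 10 of 29 members (34.5%), against 11.5% of all features, and above them for FGL1 alone (3.45%), against 10.9%. Some of the cholangiocyte markers moved the other way. KRT7, KRT19 and SPP1 were above all 4 earlier libraries in both libraries of day 11, as were 10.9% of all features. Their log2 fold changes were 1.12, 0.70 and 1.29, with adjusted p values in edgeR of 0.182, 0.182 and 0.180. SPP1 was at only 0.88 to 2.71 FPKM, and SOX9 and EPCAM had log2 fold changes of 0.23 and -0.09. The part of these markers in the members' results was not tested.

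SERPINA6, whose values are given above, was at 29.4 and 43.3 CPM on day 11 and at no less than 80.6 CPM in the 4 earlier libraries. Its log2 fold change for day 11 was -1.42 (SE 0.19, adjusted p = 0.133, edgeR, and 4.35e-07 with DESeq2). ORM1 and ORM2 had log2 fold changes of -1.07 (SE 0.15) and -1.17 (SE 0.17), both with an adjusted p of 0.133 in edgeR. They were thus lower on day 11 and, on each day, higher in shNXN. AGT (-0.95, SE 0.17, adjusted p = 0.144, edgeR) and TTR (-0.89, SE 0.14, adjusted p = 0.141, edgeR) showed the same drop. ANG encodes angiogenin, a secreted ribonuclease. It was at 12.7, 16.4 and 5.34 CPM in shControl and at 14.9, 16.3 and 7.80 CPM in shNXN, so that both values of day 11 were below the earlier 4 (log2 fold change -1.08, SE 0.23, adjusted p = 0.161, edgeR). It shares its locus with RNASE4, and their reads may not have been separated. IGFBP4, another carrier of insulin-like growth factors, was at 5.44, 6.52 and 0.552 CPM in shControl and at 4.38, 5.39 and 1.87 CPM in shNXN, low on day 11 in both (log2 fold change -2.06, SE 0.56, adjusted p = 0.182, edgeR). FETUB had a log2 fold change of -2.42 (SE 0.54, adjusted p = 0.164, edgeR).

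Between days 9 and 7, 0 members and 0.0% of all features were called in edgeR, with 3 members lower at an unadjusted p under 0.05, against 3.39% of all features. DESeq2 called IGFBP1 lower on day 9, against 0.505% of all features. Its log2 fold change was -1.74 (SE 0.28, adjusted p = 0.475, edgeR, and 4.40e-05 with DESeq2), and that of LCN2 was -0.90 (SE 0.24, adjusted p = 0.986, edgeR). Whether the difference between shNXN and shControl itself changed with the day was tested as a change in log2 fold change per day. For this term 0 members and 0.0% of all features were called in edgeR, with 1 member, SERPINA3, at an unadjusted p under 0.05, against 1.08% of all features (-0.29 per day, SE 0.11, adjusted p = 1.0). For ALB the term was 0.70 per day (SE 0.36, adjusted p = 1.0, edgeR). The return of ALB to the shControl level on day 11 rests on 1 library and was not called as a change over time. The term assumes an equal change per day, while the log2 differences of ALB were -2.75, -4.32 and 0.06 on days 7, 9 and 11. In simulation the test of this term recovered 37.5% of the changed genes. The lack of a call therefore does not show that the difference stayed the same.

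Lists of genes that act on or beside the members were read in the same fits. Of 19 tested genes of acute-phase signalling, 12 were higher and 7 lower in shNXN, with a median log2 fold change of 0.22 and 0 called. With the block, which called 23.3% of all features in either direction, NFKB2 and NFKBIA of the NF-kB pathway were called higher and 4 genes lower, among them IL6ST, the gp130 subunit through which interleukin-6 signals (-2.27, SE 0.29, adjusted p = 0.0156, edgeR), and its kinase JAK2 (-1.74, SE 0.35, adjusted p = 0.0301, edgeR), both without a correction for base composition. Of 21 tested hepatocyte transcription factors, 15 were higher and 6 lower, with a median of 0.39. ONECUT2 was called lower (-0.70, SE 0.13, adjusted p = 0.0473, edgeR), in a fit that called 3.39% of all features. With the block 4 of the 21 were called higher and 2 lower, against 6.28% and 17.0% of all features. Of 30 tested coagulation and complement genes, 13 were higher and 17 lower with a median of -0.18. Of 13 apolipoprotein genes, 10 were higher and 3 lower with a median of 0.29. EdgeR called 0 in either list without the block and 6 and 2 with it, against 23.3% of all features. Most of these calls were upward, as among the members. F2, C1R, C1S, C3, MASP1, APOC1 and APOC2 were called higher, against 6.28% of all features called higher, and PROS1 was called lower. On day 11 both of these secreted groups shared the direction of the members, with 25 of 30 and 12 of 13 genes lower than on day 7, and medians of -0.70 and -0.51, although 0 of either list were called in edgeR and 11 and 5 were lower at an unadjusted p under 0.05, against 9.75% of all features. DESeq2 called 8 coagulation and complement genes and 2 apolipoprotein genes lower on day 11, against 2.91% of all features.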

How the data were processed

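Per the labels, total RNA of 6 Hep3B libraries was sequenced with an mRNA-seq library kit. The authors deposited estimated counts per feature, 15.1% to 18.8% of them not whole, and FPKM values. The aligner and counter are not given in the sources used here, and the labels name only mouse builds (GRCm38, mm10) for these human libraries. Copies, overlapping genes and, as strand use is not stated, antisense genes are therefore uncertain. Counts were rounded and tested in edgeR 4.0.16 (R 4.3.3) with TMM factors, filterByExpr and the quasi-likelihood test, with p adjusted by Benjamini-Hochberg over all 14071 features and called under 0.05. The SE is the log2 fold change divided by the square root of F. CPM used TMM factors, and differences by day added 0.5 CPM. DESeq2 1.42.0, limma 3.58.1 on log2(FPKM + 1) and log2(FPKM + 0.1), and a spline correction (5 degrees of freedom) were alternatives. The correction used guanine and cytosine content known for 90.5% of features and 100% of members.

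Libraries of the same day deviated together (correlations of 0.30, 0.31 and 0.45, against -0.37 to 0.15 between days), so the day was also used as a block. The deviations were taken from each group's mean, which by itself pushes the correlations between days down. The gap between these correlations is therefore partly built in. Libraries of the same group, each from a different day, differed by more than sampling noise (chi-square per gene 20.1 to 77.8). This spread includes the difference between days. On simulated data with 200 of 14071 genes changed, the test of shNXN recovered 74% at a log2 change of 2 and 15% at 1, with 9 false calls. Members and lists were chosen with earlier results of these data known. Values in every library were given for the 2 highest members of each role, members called in a fit without the block or, for shNXN, with it, the 5 with the smallest p for shNXN and for day 11, and ORM1, ORM2, SAA1 and SAA2. CP, A2M, ANG, IGFBP4, LRG1, SERPINA7, FGL1, A1BG, HP, ITIH2, the marker genes, AFP, NFKB2, NFKBIA, IL6ST and JAK2 were named after their values were seen. The same holds for F2, C1R, C1S, C3, MASP1, PROS1, APOC1 and APOC2. There were 0 columns without a sample.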

Additional observations from a re-analysis of the deposited data

Results flagged for a closer look

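For 10 of the 29 tested members the 2 groups moved in opposite directions from day 7 to day 11. No share over all features stands beside this count, so it is a description and not a trait of the members. HP had only 6 to 34 counts per library and SAA4 only 4 to 44. The values are differences in log2 CPM between 1 library of each day, so these single contrasts were not tested, and the test across all libraries for a group difference that changes with day called 0 members. ALB changed by -0.46 in shControl and by 2.35 in shNXN, the widest gap of the 10. SERPINA7 changed by -1.24 and 0.27, HP, for haptoglobin, by -1.26 and 0.17, ITIH2 by -0.48 and 0.06, A2M by -0.3 and 0.24, and SAA4 by -0.48 and 0.64, in the same order. For the other 4 the shControl value went up and the shNXN value down. SERPINA3 changed by 0.29 and -0.85, AHSG by 0.07 and -0.39, IGFBP1 by 0.39 and -0.21, and LCN2 by 0.35 and -0.17. The shNXN library of day 11 enters each of these pairs. Without it, edgeR called ALB, GC and CP lower and SERPINA3, ORM1 and ORM2 higher in shNXN, against 25.8% of all features. Of these, only ALB and SERPINA3 are among the 10.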

How the results depend on the processing

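The tests rest on 3 libraries per group and 1 per group and day, and small changes were rarely recovered in simulation. For shNXN, 477 features were called, and the count was 3311 with DESeq2, 818 without the filter, 826 and 929 when RLE factors or plain library sizes replaced TMM, 66 and 287 with limma on log2(FPKM + 0.1) and log2(FPKM + 1), 5 after the correction for guanine and cytosine content, 3272 with the replicate block, 130 with block and correction, and 0 to 3706 with 1 library left out. The members called were 0, 5 with DESeq2, 5 with the block and 0 to 6 with 1 library left out, 6 without the shNXN library of day 11, and the block changed no other call among the members. For day 11 the features called were 0, 735 with DESeq2, 1 after the correction, 113 without the filter and 0 to 1549 with 1 library left out, and the members called were 7 with DESeq2, 3 without the filter and 0 to 7. For day 9 they were 0, 75 with DESeq2, 7 after the correction, 3 with RLE factors, with library sizes alone and with each limma fit, 15 without the filter and 0 to 89, and the members called were 1 with DESeq2 and 0 to 1. For the change per day the features called were 0, 4 with DESeq2, 1 without the filter and 0 to 12 with 1 library left out.

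Of 575 values for single members under other settings, 529 kept their direction and side of the threshold, 21 passed it and 25 reversed. For shNXN the log2 fold change reversed for AMBP (-0.15 corrected, -0.12 with block and correction), ANG (-0.15, -0.08), FGL1 (0.46, 0.47), A1BG (-0.01 corrected), GC (0.16 in both limma fits), AGT (0.03 in both) and IGFBP4 (0.26 and 0.03 in limma, 0.18 with the block). For day 11 it reversed for SAA4 (-0.10 with DESeq2), FGL1 (-0.10 corrected), A1BG (0.38 and 0.24 in limma) and A2M (-0.03 with DESeq2, -0.02 corrected, -0.03 with RLE factors, -0.04 with library size, -0.07 in both limma fits, -0.01 without the filter). The cause was not tested. With 1 library left out, the shNXN value ran from -0.34 to 0.33 for AGT, -0.09 to 0.58 for ANG, -0.79 to 0.37 for FETUB, -0.25 to 0.02 for AZGP1, -0.31 to 0.05 for FGL1, -0.42 to 0.17 for HPX, -0.55 to 0.44 for IGFBP4, -0.03 to 0.69 for SERPINA6 and -0.32 to 0.12 for TTR. The day 11 value ran from -1.0 to 0.02 for A1BG, -2.07 to 0.13 for HP, -0.63 to 0.11 for ITIH2, -0.53 to 0.36 for A2M, -0.52 to 0.16 for AHSG, -0.90 to 2.60 for ALB, -0.08 to 1.02 for GC, -0.40 to 0.51 for IGFBP1, -0.32 to 0.45 for LCN2, -1.03 to 0.91 for SAA4, -0.83 to 0.22 for SERPINA3 and -1.82 to 0.69 for SERPINA7, and the ALB change per day from -0.41 to 1.82.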
